A study of Arabidopsis thaliana with 9 samples.

Results

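The genes described here make aliphatic glucosinolates, the methionine-derived mustard oil precursors of Arabidopsis, together with the MYB transcription factors that switch that pathway on. They were picked out of the table by locus identifier, for their place in the pathway, with earlier results of these data known. The set has 10 genes, MYB28 (AT5G61420), MYB29 (AT5G07690), MYB76 (AT5G07700), CYP79F1 (AT1G16410), CYP79F2 (AT1G16400), CYP83A1 (AT4G13770), MAM1 (AT5G23010), BCAT4 (AT3G19710), FMO GS-OX1 (AT1G65860) and AOP2 (AT4G03060), set within a count table of 27206 genes. A row was found for 9 of the 10, and these 9 all passed the filter on low counts, 3 of them factors and 6 enzymes. AOP2 had no row in the table, so its expression was not analysed here and it enters only the promoter search.

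Aliphatic glucosinolates are made in 3 stages. BCAT4 removes the amino group of methionine and MAM1 condenses the resulting keto acid with acetyl-CoA, so that the side chain is lengthened. CYP79F1 and CYP79F2 turn the lengthened amino acid into an aldoxime, CYP83A1 oxidises the aldoxime, and later enzymes build the sulfur-bearing core. The side chain is then modified, with FMO GS-OX1 oxidising its sulfur and AOP2 forming an alkenyl end, a step known to be inactive in the Col-0 accession. MYB28, MYB29 and MYB76 activate the genes of the pathway and are known to do so together with MYC2 and its relatives, basic helix-loop-helix factors of jasmonate signalling. In damaged leaf the stored compounds meet the enzyme myrosinase and are broken down to isothiocyanates and nitriles that deter insects.

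Polyadenylated RNA was sequenced from soil-grown Arabidopsis thaliana leaves (wild type, ecotype Col-0, short days). The 3 groups were leaves taken before wounding (time 0), at 30 min and at 60 min after wounding, each with 3 biological replicates. The labels list no unwounded leaves collected at 30 or 60 min, and the effects of wounding and of time of day therefore cannot be told apart. The number of plants behind a library and the way of wounding were not stated in the labels.

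The shallowest library, 30 min replicate 1, held 14300929 counts and each of the other 8 held 22072126 to 22970735. Of the leaf markers, all 4 mesophyll genes were far above the floor of 3 counts in every library, with a summed level in CPM (counts per 1000000 counts of the library, scaled with TMM factors) of 111370 to 137410 before wounding (30 min, 85378 to 110380, and 60 min, 72501 to 99104), while AG, AP1 and CRA1 of flower and seed had at most 9 counts. Of the 4 mesophyll genes RBCS1A, a Rubisco small subunit, was called lower at 60 min (log2 change -0.62, edgeR adjusted p 0.0467). The 3 epidermis and guard cell markers, all above the floor, summed to 59.9 to 65.6 CPM before wounding, 62.4 to 79.9 CPM at 30 min and 72.1 to 78.0 CPM at 60 min. Among them FAMA, a factor of guard cell development, rose at both times (log2 changes 1.37 and 1.41, edgeR adjusted p 3.77e-05 and 2.73e-05), and ATML1 and KAT1 were not called. PYK10, a gene known from roots, was present at 98 to 637 counts and was called lower at both times (log2 changes -1.04 and -1.08, edgeR adjusted p 0.0384 and 0.0283). Its libraries at both times overlapped with those before wounding, which held 637, 241 and 355 counts. Aliphatic glucosinolate genes are known to be active around leaf veins, and the 7 vascular markers had a summed level of 150.4 to 216.5 CPM before wounding, 149.5 to 229.7 CPM at 30 min and 149.1 to 174.7 CPM at 60 min. Of these 7 markers only SULTR2;2, a sulfate transporter, was called in edgeR's test, with log2 changes of -1.05 and -0.89 (adjusted p 0.0174 and 0.031). The part of any of these markers in the results was not tested. In whole leaves, fewer cells of a type and less RNA per cell cannot be told apart.

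The stretch of 250 bases before the annotated transcription start is shown for MYB28 and CYP83A1, the factor and the enzyme with the highest levels per kilobase before wounding, and for CYP79F1, which fell furthest. The sequences are those of the TAIR10.1 assembly with RefSeq gene starts, given 5′ to 3′ on the strand of the gene, and the counts themselves carry no coordinates (the submitters' processing notes name TAIR10). Capitals mark matches to the G-box CACGTG, to CACATG or to the evening element AAAATATCT, each searched on both strands.
MYB28 (chr5:24691188-24691437, minus strand): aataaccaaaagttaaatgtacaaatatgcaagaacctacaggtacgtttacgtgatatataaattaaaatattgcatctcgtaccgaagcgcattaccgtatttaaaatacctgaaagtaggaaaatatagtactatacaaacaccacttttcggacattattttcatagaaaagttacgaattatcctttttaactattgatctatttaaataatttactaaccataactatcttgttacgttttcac
CYP79F1 (chr1:5608432-5608681, plus strand): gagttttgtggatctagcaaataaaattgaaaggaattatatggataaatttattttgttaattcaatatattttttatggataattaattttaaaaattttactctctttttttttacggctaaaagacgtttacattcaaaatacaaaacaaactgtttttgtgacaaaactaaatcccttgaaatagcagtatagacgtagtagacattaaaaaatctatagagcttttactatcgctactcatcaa
CYP83A1 (chr4:7992430-7992679, minus strand): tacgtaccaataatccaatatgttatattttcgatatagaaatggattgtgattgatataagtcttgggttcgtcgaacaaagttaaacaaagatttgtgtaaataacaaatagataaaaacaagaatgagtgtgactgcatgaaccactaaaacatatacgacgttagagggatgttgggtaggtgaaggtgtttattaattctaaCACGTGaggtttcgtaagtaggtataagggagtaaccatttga
Of the 3 only CYP83A1 holds a match in this stretch, a G-box, the motif that MYC2 is known to bind, starting at base -43. In the longer window from 250 bases before to 50 bases after the start, a G-box was found in 1 of the 10 genes and in 7.68% of all 27443 promoters. CACATG was found in 2 of the 10, FMO GS-OX1 and AOP2, and in 12.9% of all promoters. The evening element was found in 0 of the 10 and in 2.82% of all promoters. Outside the set, a G-box was found in 2 of 8 further chain elongation genes, 1 of 10 core structure genes and 1 of 8 side chain genes. It was found in 0 of 3 transport genes, 0 of 7 other regulators, 0 of 12 breakdown genes and 1 of 12 indole branch genes. IPMDH1, which followed CYP83A1 most closely in level, had none of the motif letters in its window.

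To follow the pathway through the first hour, each time after wounding was compared with the leaves taken before it. At 30 min 6 of the 9 measured genes had fallen (MYB28, MYB29, CYP79F1, CYP83A1, MAM1 and BCAT4), and at 60 min 7 were below their level before wounding (the same without MYB29, with CYP79F2 and FMO GS-OX1 added). The calls are from edgeR's quasi-likelihood test across 17622 genes at a Benjamini-Hochberg adjusted p under 0.05, by which 13.4% of all tested genes were called lower at 30 min and 15.3% at 60 min. Calls in either direction were made for 28.0% and 32.4% of all genes. None of the 9 was called higher at either time, and at an unadjusted p under 0.05 or by DESeq2 the count of such calls was also 0. The log2 change was above 0 only for MYB76 at 30 min (0.12). The median log2 change over the 9 was -1.28 at 30 min and -1.53 at 60 min, beside 0.02 and 0.06 over all tested genes. Libraries did not overlap with those before wounding, and were lower, for 6 of the 9 at 30 min and 7 of the 9 at 60 min, beside 21.5% and 22.5% of all genes. Calls at both times were made for 5 of the 9 (MYB28, CYP79F1, CYP83A1, MAM1 and BCAT4), beside 10.7% of all genes called lower at both. A test for any difference among the 3 times called 7 of the 9, all but MYB76 and CYP79F2, and 32.1% of all genes. In this edgeR F test MYB29 (adjusted p 0.0441), FMO GS-OX1 (0.0491) and the uncalled CYP79F2 (0.0541) lay close to the threshold. Both comparisons use the same 3 libraries from before wounding.

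**Figure D1:**
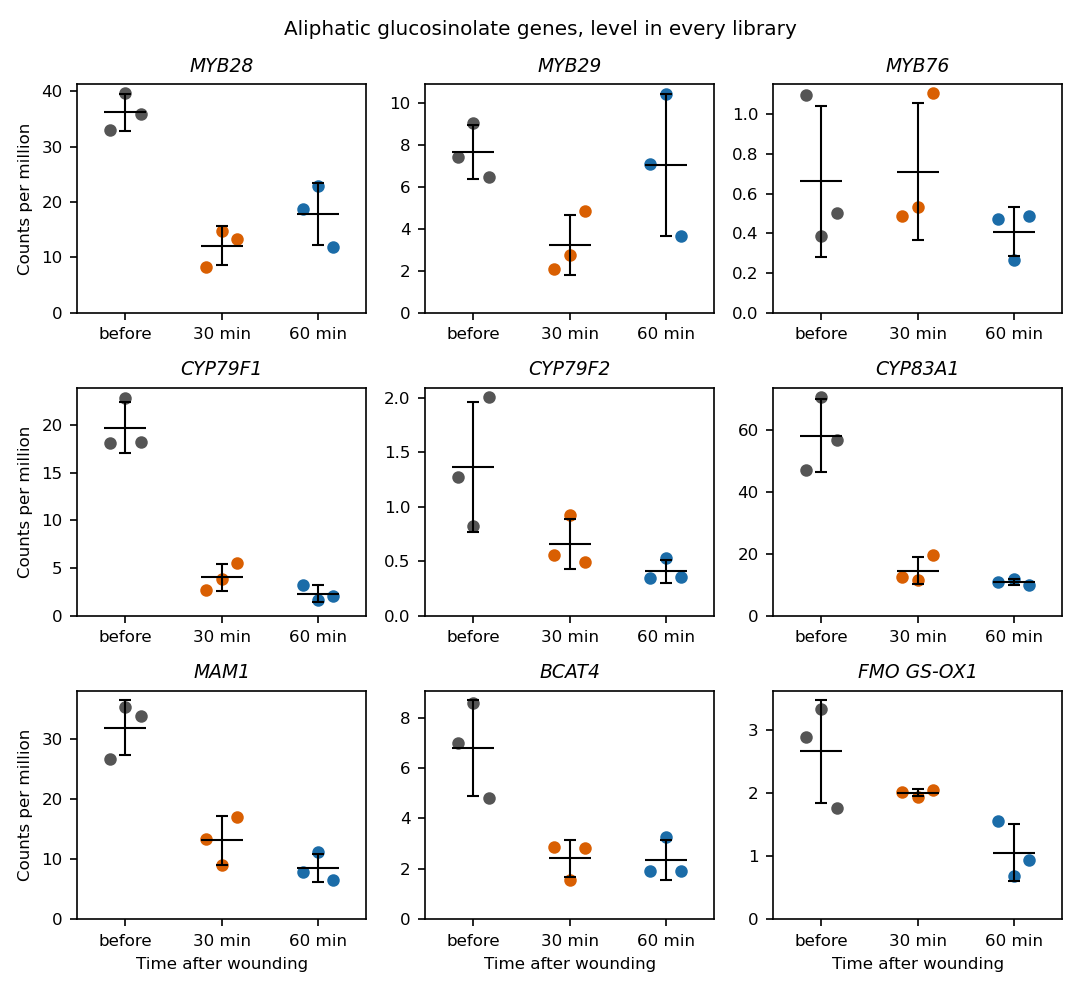
Level of the 9 measured genes in every library, in TMM-scaled CPM, against time after wounding. Points are libraries, in the order of replicates 1 to 3, and bars are the mean ± SD of 3. CYP79F1, CYP83A1, MAM1, BCAT4 and MYB28 lie lower in all 6 libraries after wounding than in any before it, whereas MYB29 at 60 min overlaps its level before wounding.

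MYB28, the main activator of the pathway, stood at 33.0, 39.7 and 36.0 CPM in the libraries from before wounding. It was at 8.21, 14.8 and 13.3 CPM at 30 min and at 18.8, 22.8 and 11.8 CPM at 60 min. All 6 libraries after wounding lie below the lowest from before it, and those of 30 and 60 min overlap. The fall of MYB28 was 2.97-fold by 30 min (-1.57 on the log2 scale, SE 0.25, edgeR adjusted p 0.000378) and 2.03-fold by 60 min (-1.02, SE 0.24, adjusted p 0.0057).

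MYB29, an accessory activator known to respond to jasmonate, measured 7.41, 9.04 and 6.47 CPM before wounding. Its levels were 2.09, 2.77 and 4.84 CPM at 30 min, all below those before wounding, and 7.07, 10.4 and 3.63 CPM at 60 min, on both sides of them. The log2 change of MYB29 was -1.22 at 30 min (SE 0.37, edgeR adjusted p 0.0263) and -0.12 at 60 min (SE 0.36, adjusted p 0.835). The call at 30 min was lost with the replicate number as a block (0.0556), with library size as the only scaling (0.0871) and without before-wounding replicate 1 (0.0526) or 2 (0.0855) or 30 min replicate 1 (0.104) or 2 (0.066). At 60 min the sign of its change turned with library size only (0.14) and without 60 min replicate 3 (0.17).

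MYB76, the neighbour of MYB29 on chromosome 5, was close to the detection floor, with 25, 8 and 10 counts before wounding, 7, 11 and 27 at 30 min, then 11, 7 and 11 at 60 min. Both later groups overlap with the libraries from before wounding. The log2 change was 0.12 at 30 min (SE 0.61) and -0.70 at 60 min (SE 0.62), neither past the test (edgeR adjusted p 0.911 and 0.419), and the sign at 30 min turned when before-wounding replicate 2 (-0.16) or 3 (-0.06) or 30 min replicate 3 (-0.36) was left out.

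Counts of the 2 main factors were also set against each other. Within a library the number of MYB29 counts was 22.5%, 22.8% and 18.0% of the number of MYB28 counts before wounding, 25.7%, 18.8% and 36.4% at 30 min, and 37.6%, 45.7% and 30.8% at 60 min. A ratio of this kind does not depend on library scaling. Its mean log2 value was -2.25 ± 0.19 (SD, n = 3) before wounding, -1.94 ± 0.48 at 30 min and -1.41 ± 0.28 at 60 min. All 3 libraries at 60 min lie above all 3 from before wounding, a difference of 0.84 with an exact two-sided permutation p of 0.1, the smallest that 3 against 3 libraries allow. At 30 min the groups overlap, with a difference of 0.31 and an exact permutation p of 0.4, and the difference was 0.07 without 30 min replicate 3.

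**Figure D2:**
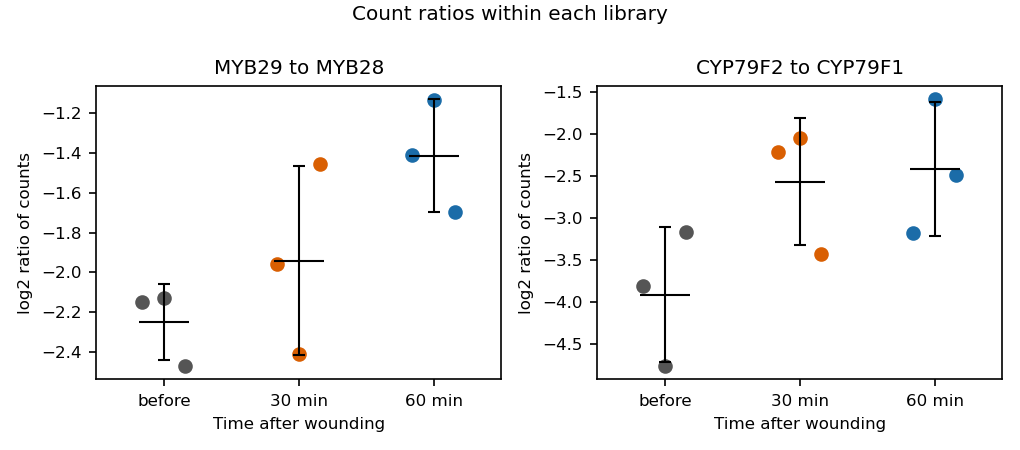
Log2 ratio of MYB29 to MYB28 counts (left) and of CYP79F2 to CYP79F1 counts (right) within each library, against time after wounding. Points are libraries and bars the mean ± SD of 3. The ratio of MYB29 to MYB28 at 60 min lies above that before wounding in every library, whereas the ratio of CYP79F2 to CYP79F1 overlaps between the times.

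BCAT4, the aminotransferase that commits methionine to chain elongation, measured 7.02, 8.60 and 4.82 CPM before wounding. It was at 2.85, 1.55 and 2.83 CPM at 30 min and at 1.90, 3.26 and 1.90 CPM at 60 min, with every library after wounding below every one before it. Its fall was 2.83-fold by 30 min (log2 value -1.50, SE 0.34, with an edgeR adjusted p 0.00471) and 2.88-fold by 60 min (-1.53, SE 0.33, adjusted p 0.00346). It overlaps AT3G19700 on the opposite strand, and because the use of strand in counting was not stated, some of its reads may belong to that gene.

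MAM1, the methylthioalkylmalate synthase of the first elongation cycles, stood at 26.7, 35.3 and 33.8 CPM before wounding. The 30 min libraries had 13.4, 8.93 and 17.1 CPM and the 60 min libraries 7.89, 11.1 and 6.56 CPM. No library after wounding reached the lowest from before it. MAM1 fell by 1.28 at 30 min (SE 0.24, edgeR adjusted p 0.00154) and by 1.90 at 60 min (SE 0.25, adjusted p 7.75e-05), which left 26.8% of its level before wounding in the fit.

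CYP79F1, which makes aldoximes from short- and long-chain methionine derivatives, had the deepest fall of the set. Its levels were 18.1, 22.8 and 18.2 CPM before wounding, 2.72, 3.88 and 5.50 CPM at 30 min and 3.27, 1.63 and 2.08 CPM at 60 min. The fall was 4.81-fold by 30 min (log2 -2.27 with an SE of 0.29, edgeR adjusted p 6.16e-05) and 8.47-fold by 60 min (-3.08, SE 0.30, adjusted p 6.07e-06). At 60 min only 72 of the 17622 tested genes had a lower log2 change than CYP79F1, and at 30 min 186 did.

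CYP79F2, its tandem neighbour on chromosome 1, which acts on long-chain derivatives, had a much lower level per kilobase of exon. It was counted 29, 17 and 40 times before wounding, 8, 19 and 12 times at 30 min and 8, 14 and 8 times at 60 min. In CPM this was 1.27, 0.822 and 2.01, then 0.557, 0.922 and 0.493, then 0.345, 0.530 and 0.354, so that the 30 min libraries overlap with those before wounding and the 60 min libraries do not. The log2 change of CYP79F2 was -1.05 at 30 min (SE 0.52, edgeR adjusted p 0.159) and -1.71 at 60 min (SE 0.54, adjusted p 0.0254). The call at 60 min was lost with the replicate block (0.0537) and without before-wounding replicate 1 (0.0525) or 3 (0.136) or 60 min replicate 1 (0.0792) or 3 (0.0707). Coding sequences of the pair are 91.9% identical over 1605 aligned bases, yet 98.3% of the 50-base stretches in the exons of CYP79F1 and 97.1% of those in CYP79F2 occur once in the genome.

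The pair was also compared within libraries. CYP79F2 had 7.15%, 3.70% and 11.1% as many counts as CYP79F1 before wounding, 21.5%, 24.2% and 9.29% at 30 min, then 11.1%, 33.3% and 17.9% at 60 min. The mean log2 ratio went from -3.91 ± 0.80 (SD, n = 3) to -2.56 ± 0.75 and -2.41 ± 0.79. Differences of 1.35 at 30 min and 1.50 at 60 min each had an exact two-sided permutation p of 0.2, and the groups overlap. With 3 against 3 libraries this test cannot go below 0.1, so it cannot show whether the 2 genes fell unequally.

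CYP83A1, which oxidises the aldoximes made by the CYP79F enzymes, had the highest level per kilobase of exon before wounding, with 47.1, 70.8 and 57.0 CPM. It was at 12.5, 11.7 and 19.7 CPM at 30 min and at 11.0, 12.0 and 10.1 CPM at 60 min, so that its highest library after wounding lay far below the lowest before it. The fall was 3.97-fold by 30 min (log2 -1.99 with an SE of 0.21, edgeR adjusted p 1.61e-05) and 5.26-fold by 60 min (-2.39, SE 0.22, adjusted p 3.38e-06).

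FMO GS-OX1, the S-oxygenase of the side chain, was called at 60 min only. It measured 2.89, 3.34 and 1.76 CPM before wounding, 2.02, 1.94 and 2.05 CPM at 30 min and 1.55, 0.682 and 0.930 CPM at 60 min. The log2 change was -0.41 at 30 min (SE 0.38, edgeR adjusted p 0.47) and -1.34 at 60 min (SE 0.40, adjusted p 0.0196), while the change between 30 and 60 min, -0.93 (SE 0.40), had an adjusted p of 0.351. The call at 60 min was lost without before-wounding replicate 1 (0.0552) or 2 (0.0888) or 60 min replicate 2 (0.0631) or 3 (0.0543).

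Summed over the 6 enzyme genes, the level was 121 ± 19.5 CPM (SD, n = 3) before wounding, 36.9 ± 9.65 CPM at 30 min and 25.7 ± 3.66 CPM at 60 min, or 30.5% and then 21.3% of the starting level. Over the 3 MYB genes it was 44.5 ± 4.04 CPM, 16.1 ± 4.61 CPM and 25.3 ± 8.84 CPM, or 36.1% and 56.8% of the starting level. The enzyme sum was 103, 142 and 118 CPM before wounding, 34.0, 29.0 and 47.6 CPM at 30 min and 26.0, 29.3 and 22.0 CPM at 60 min. These sums weight abundant genes most, CYP83A1 among the enzymes and MYB28 among the factors. Before wounding replicate 2 was the highest library for 7 of the 9 genes. At 30 min replicate 3 was the highest for 6, and at 60 min replicate 2 was the highest for 6.

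**Figure D3:**
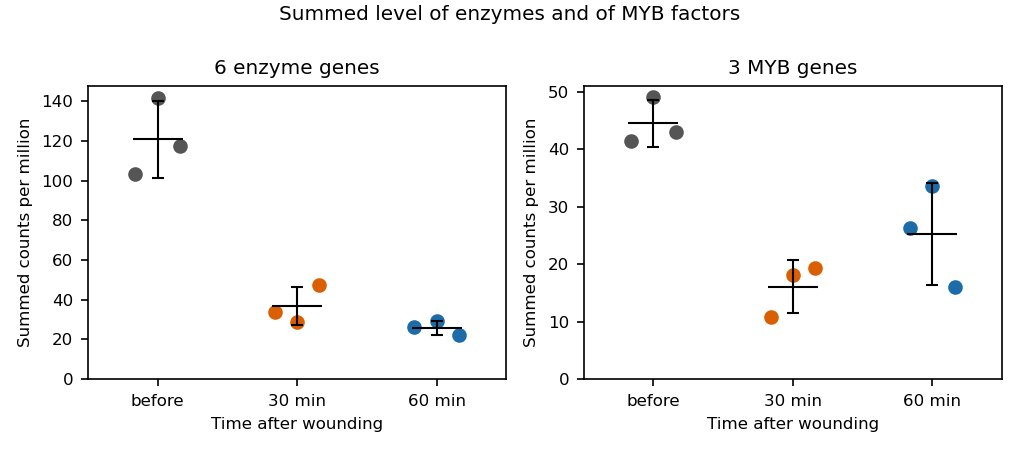
Summed level of the 6 enzyme genes (left) and of the 3 MYB genes (right) in each library, in CPM, against time after wounding. Points are libraries and bars the mean ± SD of 3. The enzyme sum falls from 103 to 142 CPM before wounding to 22.0 to 29.3 CPM at 60 min, and of the 60 min libraries of the MYB sum, 2 lie above the range of 30 min and 1 within it.

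A direct comparison of 60 min with 30 min asked whether the pathway moved further within the hour. By edgeR 0 of the 9 genes were called, beside 2.02% of all tested genes (1.30% lower and 0.721% higher), and DESeq2 also called 0. Libraries of 60 min lay below all those of 30 min for 2 of the 9, MYB76 and FMO GS-OX1, beside 8.03% of all genes. For MYB76 the ranges nearly touch, at 0.48721 CPM for the highest 60 min library and 0.48732 CPM for the lowest 30 min library. Its unscaled counts overlap between these times. At an unadjusted p under 0.05, 2 were higher at 60 min (MYB28 and MYB29) and 3 were lower (CYP79F1, MAM1 and FMO GS-OX1). By that looser rule 1044 of all 17622 tested genes were higher and 1152 lower. MYB28 had a log2 change of 0.55 (SE 0.25, adjusted p 0.378) and MYB29 one of 1.102 (SE 0.37, adjusted p 0.187), and without 60 min replicate 3 the rise of MYB29 passed the test with an adjusted p of 0.0376. The values of the 6 enzymes ran from -0.93 for FMO GS-OX1 to -0.03 for BCAT4. Those of BCAT4 turned sign with library size only and with each of 4 libraries left out.

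Levels of different genes were compared per kilobase of exon, taken over all isoforms. Before wounding CYP83A1 had 30.5 ± 6.21 CPM per kb (SD, n = 3), above MYB28 at 18.3 ± 1.70 and MAM1 at 15.6 ± 2.25, whose ranges overlap with each other. CYP79F1 (6.02 ± 0.825), BCAT4 (4.70 ± 1.31) and MYB29 (4.41 ± 0.750) followed, with overlapping ranges between neighbours, and FMO GS-OX1 (1.54 ± 0.470) lay below them. CYP79F2 (0.677 ± 0.297) and MYB76 (0.431 ± 0.248) were lowest and overlapped. At 30 min CYP83A1 (7.66 ± 2.29 CPM per kb), MAM1 (6.40 ± 1.99) and MYB28 (6.12 ± 1.75) had overlapping ranges, all above that of MYB29 (1.87 ± 0.829). At 60 min the highest mean was that of MYB28 (9.01 ± 2.82 CPM per kb), whose range overlapped with that of CYP83A1 (5.80 ± 0.499), and MYB29 (4.07 ± 1.96) overlapped with MAM1 (4.16 ± 1.15). CYP79F1, in place 4 by its mean before wounding, was in place 6 at both later times (1.23 ± 0.428 and 0.712 ± 0.260 CPM per kb). At 30 min its range overlapped with those of MYB29, BCAT4 and FMO GS-OX1, and at 60 min with that of FMO GS-OX1. Its places also depend on its joined exon length of 3272 bp. That of CYP79F2 is 2018 bp, though the coding lengths are 1617 and 1614 bases.

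The rest of the synthesis pathway was described with 26 further genes, of which 23 passed the filter on low counts. Calls at 30 min were made for 10 of the 23 (8 lower, 2 higher), and by 60 min for 16 (15 lower, 1 higher). Of all tested genes 13.4% were called lower and 14.5% higher at 30 min, and 15.3% and 17.1% at 60 min. The same shares are the background for the smaller gene groups below. Their median log2 change was -0.34 at 30 min and -0.76 at 60 min. The count of 15 was 8 with library size only, a scaling that put the median change of all genes at 0.28, and it was 9 without before-wounding replicate 2 or 60 min replicate 1. The count of 8 was 5 without 30 min replicate 1.

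**Figure D4:**
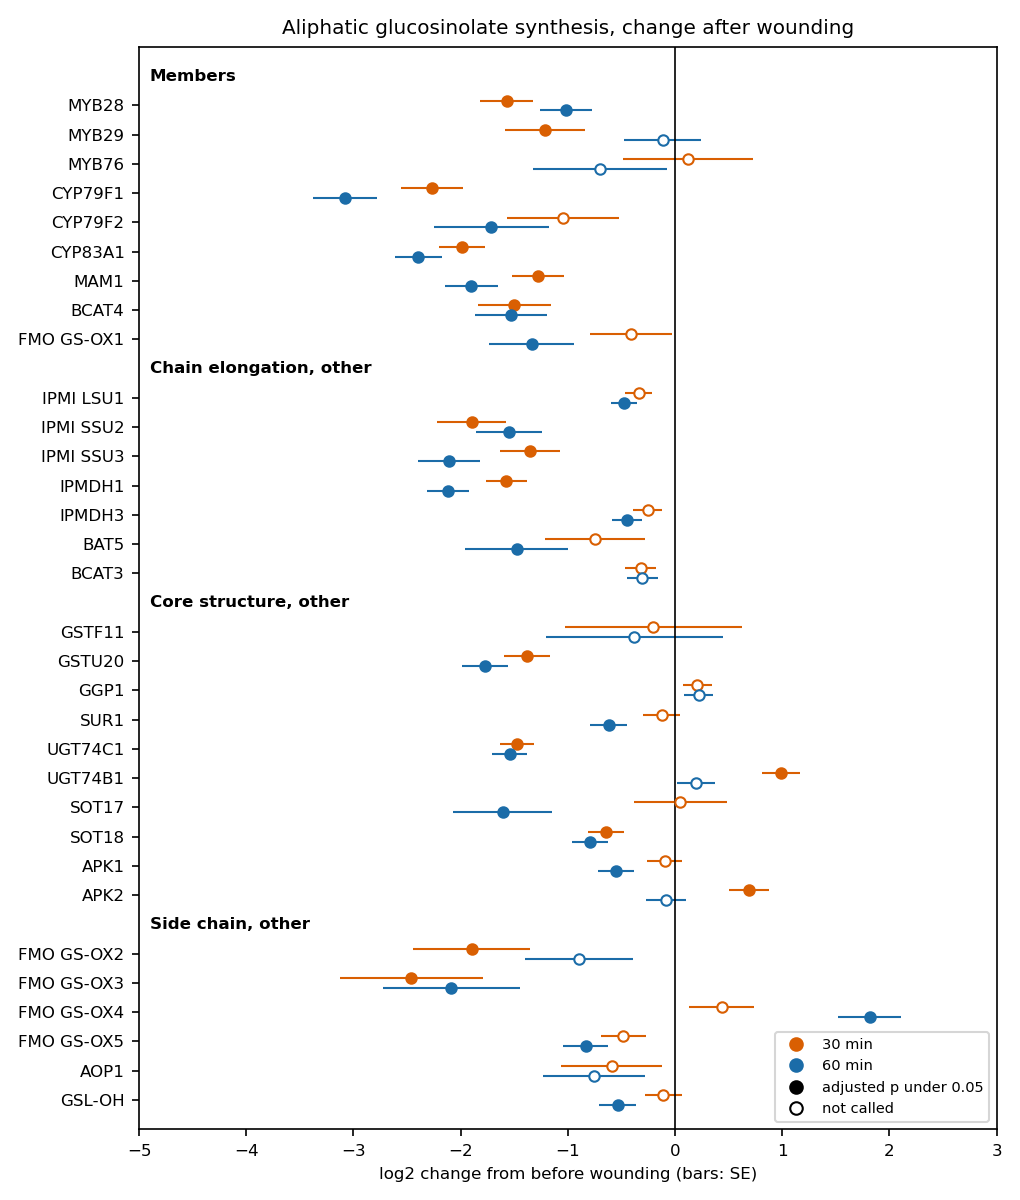
Log2 change from before wounding of the 9 measured members and of the 23 other tested genes of aliphatic glucosinolate synthesis, at 30 min (orange) and 60 min (blue), with bars for the SE. Filled points passed an edgeR adjusted p of 0.05, and open points did not. Most filled points lie left of 0, with UGT74B1 and APK2 right of it at 30 min and FMO GS-OX4 right of it at 60 min.

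Of the 7 other tested chain elongation genes, 3 were lower at 30 min and 6 at 60 min, with 0 higher by edgeR, by DESeq2 or at an unadjusted p under 0.05. Among the calls at 60 min, those of IPMDH3 and BAT5 were each lost under 6 of 16 alternatives. That of IPMI LSU1 was lost with library size only. These genes were named after their values were seen. IPMDH1, the isopropylmalate dehydrogenase of the elongation cycle, went from 56.2 ± 12.7 CPM to 18.9 ± 2.81 and 13.0 ± 1.95 CPM (SD, n = 3), log2 changes of -1.57 and -2.11 (edgeR adjusted p 4.79e-05 and 4.13e-06). IPMI SSU2 and IPMI SSU3, small subunits of the isomerase before it, had log2 changes of -1.90 and -1.35 at 30 min, then of -1.55 and -2.11 at 60 min (edgeR adjusted p 0.000114 to 0.00278 over the 4 changes). MAM3, the synthase of the longest chains and the neighbour of MAM1, reached 4 counts in 1 library and was not tested, and its coding sequence is 83.8% identical to that of MAM1. IPMDH1 overlaps AT5G14210 on the opposite strand.

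Of the other core structure genes 10 were tested. At 30 min edgeR called 3 of them lower and 2 higher, and by 60 min 6 lower and 0 higher (0 also by DESeq2 and at an unadjusted p under 0.05). Among the lower calls at 60 min, that of APK1 was lost under 4 of 16 alternatives, and those of SUR1 and SOT17 under 2 each. The call of SOT18 at 30 min was lost under 2. These genes were named after their values were seen. UGT74C1, a glucosyltransferase of the aliphatic branch, fell from 48.2 ± 5.06 CPM to 17.3 ± 2.02 and 16.5 ± 2.25 CPM, log2 changes of -1.47 and -1.54 (edgeR adjusted p 1.91e-05 and 1.17e-05). GSTU20, a glutathione transferase of that branch, went from 68.7 ± 9.88 CPM to 26.4 ± 8.40 and 20.1 ± 2.99 CPM (adjusted p 0.000308 and 4.02e-05). UGT74B1, a glucosyltransferase of the core structure, rose from 21.9 ± 4.71 to 43.5 ± 1.90 CPM at 30 min (log2 change 0.99, SE 0.18, adjusted p 0.00103) and was at 25.1 ± 4.50 CPM at 60 min. The other rise at 30 min was that of APK2, an adenosine-phosphosulfate kinase named after its value was seen (log2 change 0.69, SE 0.19, adjusted p 0.015), a call lost when any 1 of 3 libraries was left out (before-wounding replicate 1 or 3, or 30 min replicate 2). UGT74C1 overlaps 2 genes on the opposite strand.

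Calls among the 6 tested side chain genes went in both directions, with 2 lower at 30 min, and with 3 lower and 1 higher by 60 min. The lower call of FMO GS-OX2 at 30 min was lost under 4 of 15 alternatives. That of GSL-OH at 60 min was lost under 5 of 16. Both genes were named after their values were seen. FMO GS-OX3 went from 4.19 ± 0.330 CPM to 0.726 ± 0.692 and 0.972 ± 0.766 CPM, with edgeR adjusted p-values of 0.0137 and 0.0232. Its call at 30 min was lost without 30 min replicate 1 (0.0599), and that at 60 min with library size only (0.0682), with the replicate block (0.059) and without before-wounding replicate 2 (0.0571) or 3 (0.0574) or 60 min replicate 1 (0.0614). FMO GS-OX5, which prefers long-chain compounds, fell from 13.8 ± 2.63 to 7.74 ± 0.535 CPM at 60 min (adjusted p 0.00867). FMO GS-OX4, a relative of FMO GS-OX1, went the other way, from 2.26 ± 0.179 CPM to 3.08 ± 1.15 and 7.999 ± 1.01 CPM, with a log2 change of 1.82 by 60 min (SE 0.30, adjusted p 0.000419). AOP3 and BZO1 had 0 counts in all 9 libraries.

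Among 7 other regulators, MYC2 rose and SDI2 fell at both times. MYC2, the jasmonate factor that acts with the MYBs, went from 6.04 ± 1.57 CPM to 133 ± 21.4 CPM at 30 min and 50.6 ± 5.19 CPM at 60 min (log2 changes 4.46 and 3.06, edgeR adjusted p 1.19e-08 and 2.93e-07). MYC3 and MYC4, relatives of MYC2 named after their values were seen, were not called, MYC3 having log2 changes of 0.16 and then 0.37, and MYC4 of -0.24 and then -0.17 (MYC3 passed at 60 min with library size only). SDI2, known as a repressor of this pathway under sulfur shortage, went from 13.8 ± 5.39 CPM to 0.600 ± 0.225 and 1.20 ± 0.260 CPM (adjusted p 1.74e-06 and 5.80e-06). SLIM1, a sulfur deficiency factor known to lower the transcripts of these MYB genes under sulfur shortage, had log2 changes of -0.36 and 0.27 (adjusted p 0.228 and 0.353). MYC2, SDI2 and SLIM1 each overlap a gene on the opposite strand.

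Of the 3 glucosinolate transporters, 2 were tested. GTR1, which loads glucosinolates into the phloem, rose at 30 min from 25.1 ± 3.27 to 45.5 ± 8.57 CPM and was at 22.1 ± 1.88 CPM at 60 min. Its log2 change was 0.86 at 30 min (SE 0.17, edgeR adjusted p 0.00171) and -1.04 between 30 and 60 min (SE 0.17, adjusted p 0.00541). GTR2 had log2 changes of 0.09 and 0.02 (adjusted p 0.84 and 0.966). Both overlap genes on the opposite strand.

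Of 12 breakdown genes 7 were tested, and at each time edgeR called 2 of them higher and 1 lower. Of all tested genes 14.5% were called higher and 13.4% lower at 30 min, and 17.1% and 15.3% at 60 min. With 7 genes these counts describe single genes and not the list. ESM1, which favours isothiocyanates over nitriles, fell from 314 ± 39.5 CPM to 70.5 ± 17.6 and 74.6 ± 12.6 CPM, log2 changes of -2.15 and -2.07 (edgeR adjusted p 3.93e-06 and 4.53e-06). The second higher gene at 30 min was NSP5, a nitrile specifier named after its value was seen (log2 change 0.55, edgeR adjusted p 0.0449). Its call was lost under 10 of 16 alternatives, among them leaving out any 1 of the before-wounding or 30 min libraries, which leaves 1 of the 7 genes called higher. NSP1, another nitrile specifier, rose from 7.87 ± 0.262 CPM to 16.01 ± 3.79 and 18.8 ± 3.73 CPM (adjusted p 0.00227 and 0.000464). MVP1, a myrosinase-associated lipase-like protein, was called at 60 min (log2 change 0.70, adjusted p 0.0161), a call lost without before-wounding replicate 2 (0.062) or 3 (0.0714) or 60 min replicate 2 (0.0524). The myrosinases TGG1 and TGG2, named after their values were seen, had log2 changes between -0.36 and 0.24, with adjusted p-values of 0.267 to 0.455.

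The indole branch, made from tryptophan under MYB34 and MYB51, was described beside it, with calls for 8 of 11 tested genes at 30 min, 6 of them higher, and for 6 at 60 min, 4 of them higher. Of all tested genes 14.5% were called higher at 30 min and 17.1% at 60 min. The count of 4 was 2 without before-wounding replicate 3. The 2 lower genes at both times, named after their values were seen, were MYB51 and GSTF9. MYB51 went from 6.11 ± 1.77 CPM to 2.63 ± 1.22 and 1.98 ± 0.250 CPM (log2 changes -1.20 and -1.63, edgeR adjusted p 0.0224 and 0.0036), and its call at 30 min was lost with the replicate block and without before-wounding replicate 1 or 3 or 30 min replicate 1. GSTF9, a glutathione transferase, had log2 changes of -0.51 and -0.44 (adjusted p 0.0264 and 0.0463). Its calls were lost under 5 of 16 alternatives at 30 min and 9 of 16 at 60 min. These included library size only and leaving out before-wounding replicate 2 or 3 or 30 min replicate 1 at both times, 30 min replicate 2 for the earlier call, and any 1 of the 60 min libraries for the later one. MYB34 went from 8.19 ± 1.096 CPM to 29.6 ± 7.47 and 15.3 ± 5.97 CPM (log2 changes 1.86 and 0.91, edgeR adjusted p 0.000282 and 0.0237), and its call at 60 min was lost without before-wounding replicate 1 (0.0836) or 3 (0.0634) or 60 min replicate 1 (0.0734) or 2 (0.0891). CYP79B2, the counterpart of the CYP79F enzymes for tryptophan, went from 3.11 ± 0.534 CPM to 15.3 ± 6.85 and 7.05 ± 2.10 CPM (adjusted p 0.000176 and 0.0139), the later call being lost when replicate 3 of either group was left out (0.0651 for before wounding, 0.0532 for 60 min). GSTF10, a glutathione transferase whose locus overlaps an antisense-strand gene, rose from 55.3 ± 2.72 CPM to 139 ± 7.02 and 181 ± 18.8 CPM (adjusted p 7.98e-06 and 8.93e-07). The difference between the 2 branches was not tested as such.

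Across the 9 libraries Pearson's r of log2 CPM was 0.97 between CYP79F1 and CYP83A1, 0.96 between CYP83A1 and MAM1 and 0.91 between MAM1 and BCAT4. MYB28 had r of 0.72 to 0.82 with these 4 enzymes, and MYB29 had r of 0.38 to 0.58. The points share the 3 times and the library scaling, so these values are a description. Of 16110 other genes with a mean of at least 20 counts, those most like CYP83A1 were IPMDH1 (r 0.99), AT1G67750 (0.99) and LAP1 (AT2G24200, 0.98). Those most like MYB28 were BCA5 (AT4G33580, 0.97), AT2G45340 (0.97) and ARR11 (AT1G67710, 0.97), and those most like MYB29 were AT3G26490 (0.96), AT3G61950 (0.95) and ATBRXL2 (AT3G14000, 0.95).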

How the data were processed

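Leaf RNA of 3 groups of 3 libraries was analysed from 1 table of raw counts per gene and library that the authors deposited, with no normalization. The submitters' processing notes name FastQC 0.11.8, Trimmomatic 0.36, HISAT2 2.2.0, featureCounts and the build TAIR10, with no settings; the annotation, read length and use of strand were not given in the sources used here. Columns were matched to samples by library name. The filter filterByExpr kept 17622 of 27206 genes, and edgeR 4.0.16 in R 4.3.3 (TMM factors, glmQLFit and glmQLFTest, group as the only term, 1 fit to 9 libraries) gave two-sided p-values adjusted with the Benjamini-Hochberg method over all tested genes, with a threshold of 0.05. CPM is relative to the TMM-scaled total. SE is the absolute log2 change over the root of its F statistic. The floor was 3 counts, 0.114 to 0.209 CPM, for counting error only.

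Replicates are biological per the labels, and those of a group differed by more than sampling noise (chi-square per degree of freedom at least 6.91). Same-numbered libraries did not deviate together, so the fit has no block. Names, exon lengths (all isoforms joined), overlaps and sequences came from TAIR10.1 and RefSeq, read with Biopython 1.88, with an exon length for all 88 listed genes. The edgeR step was tested on simulated data. The members and gene lists were chosen with earlier results of these data known. Named outside the members are the 3 genes of each list with the smallest F test p-value and the 3 most like MYB28, MYB29 and CYP83A1 by Pearson's r of log2 CPM (prior count 2); genes outside this rule are marked where they stand. Alternatives were RLE factors, library size only, no filter, a mean of at least 20 counts, DESeq2 1.42.0, 2 groups only, a replicate block, a threshold of 0.01, and each library left out.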

Additional observations from a re-analysis of the deposited data

How the results depend on the processing

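Across 16 alternatives the falls of MYB28, CYP79F1, CYP83A1, MAM1 and BCAT4 kept their direction and their call at 30 and at 60 min. The count of called members ran from 5 to 6 at 30 min and from 5 to 7 at 60 min. Between 30 and 60 min it was 0 except without 60 min replicate 3, where it was 1. With a threshold of 0.01 all tested genes gave 2981 calls at 30 min, 3494 at 60 min, 143 between these times and 3466 over the 3 times, in place of 4930, 5704, 356 and 5650. The count of 356 was also 702 with DESeq2, 223 with the replicate block, and 161 (without 60 min replicate 1) to 480 with 1 library left out. Library size as the only scaling moved the median log2 change of all genes to 0.12 and 0.28, and the share of rises among calls from 51.9% to 61.3% at 30 min and from 52.9% to 70.9% by 60 min.

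The replicate numbers shared by the groups did not pair the libraries, with correlations of -0.47 to 0.22 between same-numbered deviations. As a block they gave 5 member calls at 30 min and 6 at 60 min, 4006 and 4728 calls over all genes, and unchanged ratio differences of 0.31, 0.84, 1.35 and 1.50 with exact sign-flip p-values no smaller than 0.25, the least that 3 pairs allow. Log2 changes that turned sign, none of them called, were those of MYB29 at 60 min (0.14 with library size only, -0.52 to 0.17 with 1 library left out), MYB76 at 30 min (-0.36 to 0.69 with 1 left out) and BCAT4 between 30 and 60 min (0.088 with library size only, -0.34 to 0.11 with 1 left out). GTR1 at 60 min turned to 0.036 with library size only. GTR2 ranged from -0.30 to 0.27 at 30 min with 1 library left out, and at 60 min was -0.011 with RLE factors, -0.012 with DESeq2 and -0.18 to 0.14 with 1 left out. The cause was not tested.

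Depth limits MYB76, CYP79F2 and FMO GS-OX1 most, with 7 to 69 counts per library.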
